A study of Mus musculus with 12 samples.

Results

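Beta-defensins and other antimicrobial proteins of skin were followed as 10 genes, Defb3, Defb4, Defb6, Defb14, Camp, Ngp, Slpi, Wfdc12, Wfdc21 and Pglyrp1, out of 56923 genes in the count table, and all 10 had enough reads to be tested among 18529 genes. The genes were chosen by name as a family of related function, with earlier results of the same libraries known, and Camp was selected on its higher level in the imiquimod (IMQ) mice labelled Lcn2-/- than in the WT IMQ mice. For that reason the members were given no test in that comparison, and Camp was given none in either IMQ response. Back skin RNA from 12 female mice aged 8 to 10 weeks was sequenced, 3 mice in each of 4 groups: WT mice and mice labelled Lcn2-/-, each without IMQ (control) or with it. IMQ mice received 5% IMQ cream on shaved back skin for 6 days and controls received Vaseline as the vehicle. The mice labelled Lcn2-/- were C57BL/6 animals from a commercial line and the WT mice their littermates. The sample titles read LCN2 KO, while the labels also call the genotype a knockdown of LCN2. They list no treatment for the controls, so the vehicle is taken from the study's methods, which name a knockout.

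Antimicrobial peptides kill or hold back microbes at body surfaces, largely by binding and disrupting their membranes. Beta-defensins are small, cationic, cysteine-rich peptides that epithelial cells secrete, and inflamed keratinocytes raise several of them in response to cytokines such as IL-17, IL-22 and IL-1. Cathelicidin (Camp) and neutrophilic granule protein (Ngp) are cargo of the specific granules of neutrophils, and Camp is also made by keratinocytes. Slpi inhibits neutrophil proteases and, with Wfdc12 and Wfdc21, belongs to the proteins with a whey acidic protein (WAP) four-disulfide core. Pglyrp1 binds bacterial peptidoglycan and is also stored in neutrophil granules. Psoriatic epidermis is known for high amounts of such peptides, and IMQ, which activates Toll-like receptor 7, is applied to mice to give psoriasis-like lesions.

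The 4 beta-defensins lie in a cluster on chromosome 8 in GRCm38, on the plus strand, in the order Defb14 (ENSMUSG00000046354, 19194357 to 19195212), Defb4 (ENSMUSG00000059230, 19198706 to 19201545), Defb6 (ENSMUSG00000050756, 19225478 to 19228209) and Defb3 (ENSMUSG00000039775, 19293360 to 19295291), with 98.1 kb between the outermost pair. Between Defb6 and Defb3 lie Defb46 and Defb5, which held 2 and 7 counts over the 12 mice. Slpi (ENSMUSG00000017002, 164354070 to 164389095) and Wfdc12 (ENSMUSG00000042845, 164189231 to 164190608) are 163 kb apart on chromosome 2, both on the minus strand. Camp (ENSMUSG00000038357, 109847379 to 109849617, minus strand) and Ngp (ENSMUSG00000032484, 110419747 to 110423012, plus strand) are 570 kb apart on chromosome 9. Wfdc21 (ENSMUSG00000051748, 83746940 to 83752642) is on chromosome 11 and Pglyrp1 (ENSMUSG00000030413, 18871331 to 18890459) on chromosome 7, both on the plus strand. All 10 are protein-coding genes, and the values below are reads counted per gene.

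Upstream sequence was at hand for 7 of the 10 members (RefSeq, GRCm38.p6) and is shown for 4 of them: Defb3 and Defb6, the most alike in sequence, of which Defb3 rose with IMQ and Defb6 did not pass the test, and Camp and Ngp, the granule genes with the highest log2 differences between the IMQ mice labelled Lcn2-/- and the WT IMQ mice. Each is printed 5′ to 3′ on the gene's own strand, up to the first base of the GENCODE gene model, with matches to a C/EBP motif (TTGCNNAA, either strand) in capitals. C/EBP proteins are transcription factors of myeloid cells and of inflamed epithelium.
Defb3 (chr8:19293111-19293359, plus strand): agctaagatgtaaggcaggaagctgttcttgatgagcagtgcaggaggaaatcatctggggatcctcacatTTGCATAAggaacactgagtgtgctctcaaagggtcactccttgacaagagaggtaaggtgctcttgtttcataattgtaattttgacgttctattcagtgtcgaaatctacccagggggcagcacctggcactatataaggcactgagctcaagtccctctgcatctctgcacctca
Defb6 (chr8:19225228-19225477, plus strand): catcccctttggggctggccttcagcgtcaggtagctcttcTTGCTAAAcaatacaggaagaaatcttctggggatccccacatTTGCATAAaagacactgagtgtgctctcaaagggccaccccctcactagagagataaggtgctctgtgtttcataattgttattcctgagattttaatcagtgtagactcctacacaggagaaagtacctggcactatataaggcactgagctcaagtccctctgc
Camp (chr9:109849618-109849706, minus strand): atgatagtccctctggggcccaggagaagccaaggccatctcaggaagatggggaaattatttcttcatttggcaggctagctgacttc
Ngp (chr9:110419558-110419746, plus strand): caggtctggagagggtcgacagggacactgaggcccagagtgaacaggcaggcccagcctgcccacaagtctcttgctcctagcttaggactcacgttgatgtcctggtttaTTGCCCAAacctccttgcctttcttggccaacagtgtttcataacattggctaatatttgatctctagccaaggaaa
The Defb3 and Defb6 stretches were identical at 196 of 264 alignment columns (74.2%), whereas the other 20 pairs among the 7 members reached between 30.8% and 53.1%. The printed Camp stretch has only 89 bases, which limits the identity of its pairs. Among pairs without Camp the lowest value was 46.9% (Slpi and Pglyrp1). Defb3 and Defb6 both hold the run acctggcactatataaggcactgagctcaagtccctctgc of 40 bases. The C/EBP motif was matched in the windows of Defb3, Defb6, Ngp, Slpi and Wfdc12 (300 bases each, 250 before and 50 after the RefSeq start), beside 10.8% of 32851 promoter windows of that length. A second match in the Ngp window lies past the printed stretch. No match to it lay in the Camp window. An NF-kB motif of 10 letters (either strand) was matched in the Pglyrp1 window alone, beside 1.63% of all windows, and a STAT motif (TTCNNNGAA, 8.3%) and an AP-1 motif (TGANTCA, 7.81%) in none of the 7. A match is a description of letters and no evidence of binding.

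Lcn2, the gene named by the genotype labels, was counted in every library. The WT control mice had 136, 201 and 86 Lcn2 counts and the controls labelled Lcn2-/- had 320, 173 and 357. After IMQ the WT mice had 1010, 2723 and 1572 counts and the mice labelled Lcn2-/- had 561, 511 and 830. These counts do not match a full loss of Lcn2 RNA, but counts per gene do not show which exons the reads came from. Whether the genotype label holds was not tested, so each direction below is that of the libraries labelled Lcn2-/-. Library totals lay between 16448226 and 28592110 counts, and 3 counts, taken as the floor of detection, stand for between 0.105 and 0.182 counts scaled to those totals (CPM; all other CPM values use totals normalized by TMM). The labels' extraction protocol mentions retinas, but 8 retinal marker genes summed to at most 3.03 CPM in any mouse and Crx was at 0 counts in all 12, while 15 basal and suprabasal keratinocyte markers summed to at least 7697 CPM. WT IMQ mouse 2 stood apart from the other WT IMQ mice in Lcn2 (183 CPM against 61.2 and 76.1) and in Defb6, and results that rest on it are also given without it. In whole skin, fewer cells of a type and less RNA per cell cannot be told apart.

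Most of the antimicrobial genes rose with IMQ, in WT mice and in mice labelled Lcn2-/-. Of the 9 members other than Camp, 7 were higher and 0 lower in WT IMQ than in WT control mice at an adjusted p under 0.05 (quasi-likelihood test of edgeR, Benjamini-Hochberg adjusted over all 18529 genes), where 14.2% of all genes were higher and 14.3% lower. In the mice labelled Lcn2-/-, 7 of 9 were again higher and 0 lower, where 14.1% of all genes were higher and 11.2% lower. Defb3, Defb4, Defb14, Ngp, Slpi, Wfdc12 and Pglyrp1 were the genes that rose in both. When a change of more than 2-fold with p under 0.05 before adjustment was asked for, the count was also 7 in each, against 8.40% and 8.59% of all genes higher. The median log2 fold change (log2 change from here on) of the 10 members was 4.04 in WT mice and 3.70 in the mice labelled Lcn2-/-, beside -0.02 and -0.05 over all genes. Defb6 and Wfdc21 were the members without a call. In the main fit, p-values rest on the spread between mice of the same group, estimated jointly over the 4 groups of 3 mice.

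**Figure D1:**
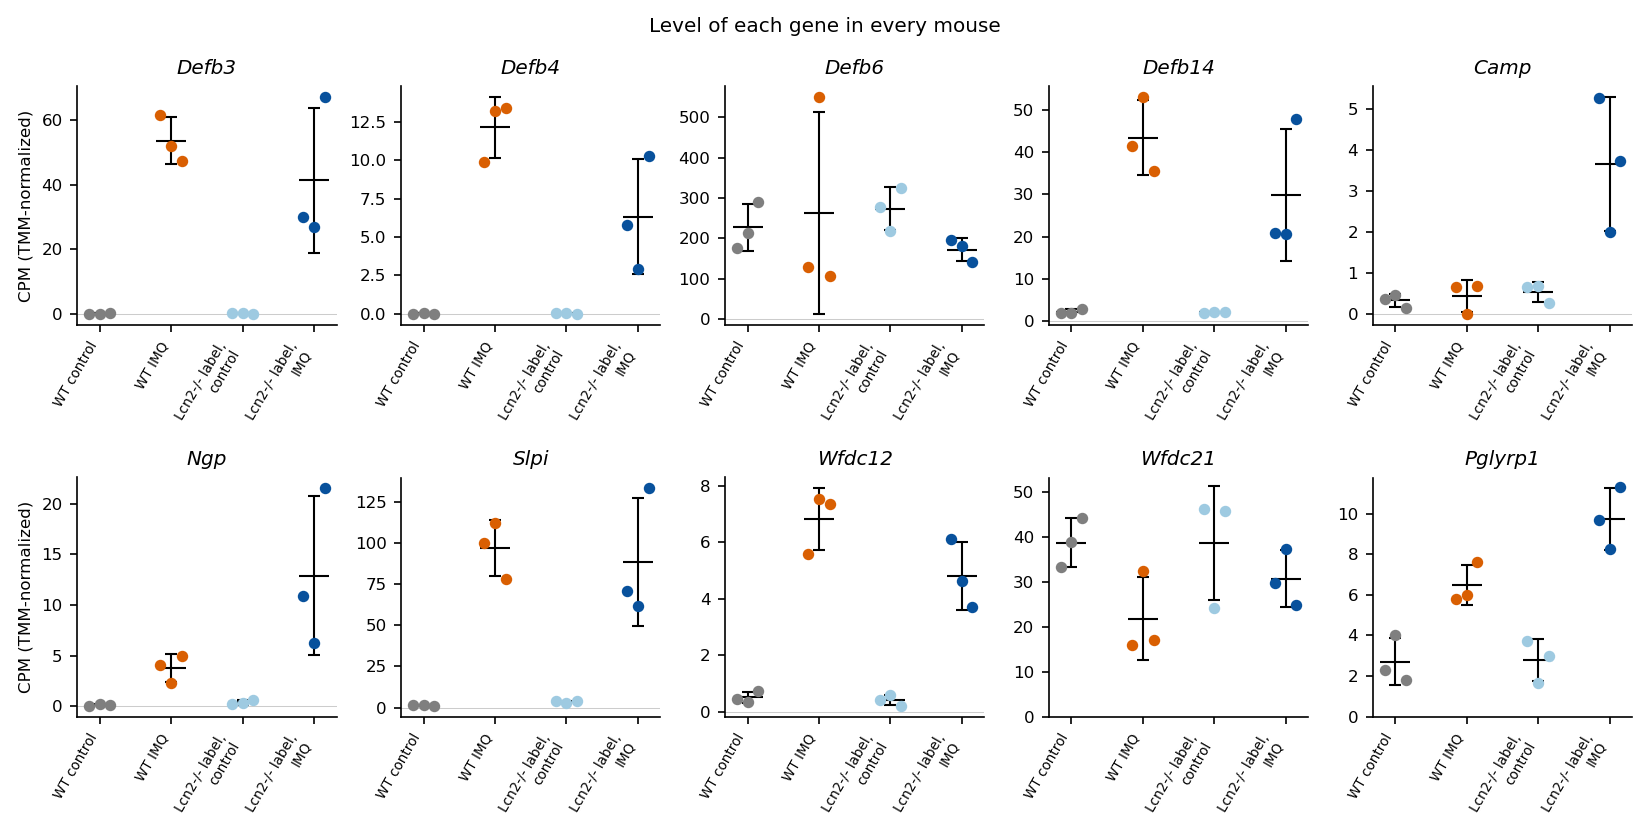
Level of each of the 10 genes in every mouse, in CPM after TMM normalization (y axis, linear, each panel with its own scale), by group (x axis). Points are mice, the horizontal line is the group mean and the bar its SD (n = 3); Defb6 and Wfdc21 are the genes with high control levels, and Camp is above 1 CPM only in the IMQ mice labelled Lcn2-/-.

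Defb3 and Defb4, inducible beta-defensins of epithelia, went from the edge of detection to clear expression. Defb3 was at 0.0462, 0 and 0.372 CPM in the WT control mice (1, 0 and 7 counts) and at 61.5, 52.1 and 47.3 CPM in the WT IMQ mice. In the mice labelled Lcn2-/- it was at 0.197, 0.32 and 0.0893 CPM without IMQ and at 30, 26.8 and 67.2 CPM with it. No control mouse came near any IMQ mouse. The log2 change of Defb3 was 8.65 (SE 0.66, adjusted p = 6.45e-06, edgeR) in WT mice and 7.67 (SE 0.62, adjusted p = 2.21e-05, edgeR) in the mice labelled Lcn2-/-. The size of the WT rise rests on few control reads: it was 10.87 on the log2 scale without WT control mouse 3, which held 7 of the 8 counts, and 8.02 without WT control mouse 2, fitted values that depend on the small count the model adds.

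Defb4 had 0, 2 and 0 counts in the WT control mice and 163, 196 and 276 in the WT IMQ mice. Without IMQ the mice labelled Lcn2-/- had 1, 1 and 0 counts, and with it 95, 50 and 172. From pooled counts the ratio was 389 in WT mice (exact 95% counting interval 107 to 3217) and 226 in the mice labelled Lcn2-/- (62.1 to 1877). Defb4 passed the edgeR test in both (adjusted p = 1.63e-05 and 6.7e-05), with a fitted log2 change of 8.34 (SE 0.74) in WT mice that became 10.87 without WT control mouse 2, a fit against controls at 0 counts and no measure of size. Its IMQ levels were 9.88, 13.2 and 13.4 CPM in WT mice and 5.8, 2.92 and 10.3 CPM in mice labelled Lcn2-/-.

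Defb14, another inducible beta-defensin and a chemoattractant peptide, was already measurable in control skin. It stood at 1.76, 1.81 and 2.82 CPM in WT control mice and at 1.91, 2.13 and 2.1 CPM in controls labelled Lcn2-/-. With IMQ it reached 41.6, 53.2 and 35.6 CPM in WT mice and 20.8, 20.6 and 47.9 CPM in mice labelled Lcn2-/-. The log2 changes were 4.36 (SE 0.36, adjusted p = 1.05e-05, edgeR) and 3.86 (SE 0.36, adjusted p = 4.53e-05, edgeR). For Defb3, Defb4 and Defb14 alike, mouse 3 was the highest of the IMQ mice labelled Lcn2-/- and reached or passed the WT IMQ range, whereas mice 1 and 2 of that group lay below every WT IMQ mouse.

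Defb6, the beta-defensin of this cluster that dominates unstimulated skin in these libraries, had no such rise. It was at 177, 214 and 290 CPM in WT control mice and at 128, 551 and 107 CPM in WT IMQ mice. Mouse 2 of the WT IMQ group was above every control and mice 1 and 3 were below every control. The log2 change over all mice was 0.20 (SE 0.50, adjusted p = 0.793, edgeR). Without WT IMQ mouse 2 it was -0.96 (adjusted p = 0.0124, edgeR), so the direction and the call depend on that mouse. In the mice labelled Lcn2-/-, Defb6 was at 277, 219 and 325 CPM without IMQ and at 196, 180 and 140 CPM with it, and the groups did not overlap. That log2 change was -0.67 (SE 0.50, adjusted p = 0.351, edgeR); the adjusted p was 0.028 when only these 6 mice were fitted and 0.0358 without WT IMQ mouse 2.

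The make-up of the transcripts of these 4 beta-defensins therefore differed between control and IMQ skin. Defb1, a beta-defensin described below, is left out of these shares (38.9 CPM in WT control and 190 CPM in WT IMQ mice). Per kb of exon, Defb6 held between 98.3% and 99% of the summed level of the 4 beta-defensins in each of the 6 control mice. It held 46.9%, 78.1% and 46.8% in the WT IMQ mice and 73.1%, 73.1% and 46.3% in the IMQ mice labelled Lcn2-/-. Defb3 made up 26.4%, 8.67% and 24.3% in WT IMQ mice and 13.2%, 12.8% and 26.1% in the IMQ mice labelled Lcn2-/-. Defb14 took similar shares, from 11.9% to 25.1% over the 6 IMQ mice, and Defb4 from 0.845% to 4.17%. The summed level itself was between 558 and 1017 CPM per kb in controls and between 707 and 935 in 5 of the 6 IMQ mice, with 2186 in WT IMQ mouse 2. On this scale and among the members, Defb14 and Defb3 ranked directly below Defb6 after IMQ in both genotypes, and their values overlapped each other.

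**Figure D2:**
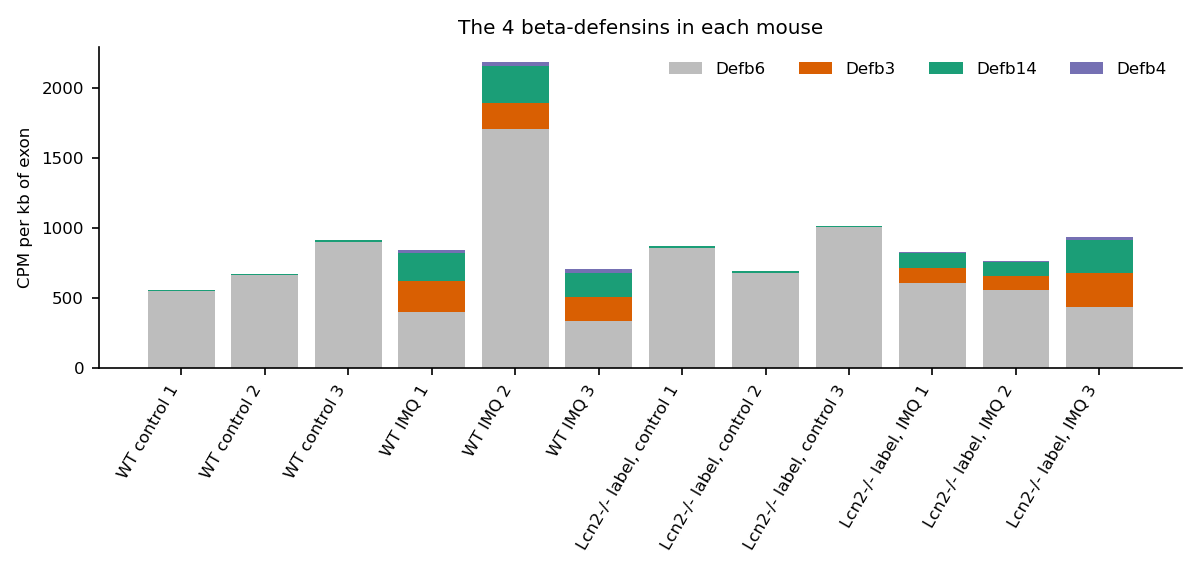
Stacked level of the 4 beta-defensins in each of the 12 mice (x axis), in CPM per kb of exon (y axis, from 0), coloured by gene. Defb6 fills at least 98.3% of each control bar, and Defb3 and Defb14 are visible in every IMQ bar; the tallest bar, 2186, is WT IMQ mouse 2.

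The transcripts of these 4 genes are not near-identical. Over all columns of a global alignment, gaps included, identity ran from 35.8% (Defb4 and Defb14) to 61.9% (Defb3 and Defb6). Unequal length limits these values, as the Defb14 transcript has 204 bases and the Defb4 transcript 454. The longest run shared by any pair was 33 bases (Defb3 and Defb4). Of all windows of 50 bases, 0 of 226 in Defb3, 0 of 274 in Defb6 and 0 of 155 in Defb14 were found in a transcript of another gene, so reads of those genes are not readily split with a copy. In Defb4, 23 of 405 windows (5.68%) were also in Defb8, which had 0 counts in all 12 libraries. Of 42 beta-defensin genes in the table, 25 had 0 counts in every mouse and 5 were tested, the 4 above and Defb1. Defb1, the constitutive beta-defensin of epithelia, was at 38.9 ± 12.2 CPM (SD, n = 3) in WT control and 190 ± 34.8 CPM in WT IMQ mice, a log2 change of 2.29 (adjusted p = 9.04e-05, edgeR). In mice labelled Lcn2-/- Defb1 rose by 1.55 on the log2 scale (adjusted p = 0.00155, edgeR).

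Of the WAP proteins, Slpi, which shields tissue from neutrophil elastase, had the largest rise. It was at 1.62, 1.85 and 1.22 CPM in WT control mice and at 100, 112 and 78.3 CPM in WT IMQ mice, a log2 change of 5.94 (SE 0.34, adjusted p = 1.31e-06, edgeR). In mice labelled Lcn2-/- it went from 4.11, 2.98 and 3.93 CPM to 70.6, 61.4 and 133 CPM, a log2 change of 4.58 (SE 0.31, adjusted p = 1.12e-05, edgeR). The IMQ levels of both genotypes overlapped, and the control levels did not. An exon of Slpi overlaps Mir7678 on the same strand, on which 45 counts fell over the 12 mice.

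Wfdc12, a small WAP protein, was at 0.462, 0.344 and 0.744 CPM in WT control mice and at 5.57, 7.53 and 7.36 CPM in WT IMQ mice, a log2 change of 3.72 (SE 0.39, adjusted p = 4.79e-05, edgeR). In the mice labelled Lcn2-/- it rose from 0.427, 0.586 and 0.223 CPM to 6.11, 4.62 and 3.72 CPM, by 3.54 on the log2 scale (SE 0.39, adjusted p = 0.000142, edgeR). Every IMQ mouse lay above every control. Wfdc12 shares 79 of its 726 windows of 50 bases (10.9%) with A730032A03Rik, a gene on the opposite strand with 143 counts over 12 mice, and whether the counting used strand is not given in the sources used here.

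Wfdc21, another WAP protein, had the second highest level per kb among the 10 members in control skin and did not pass the test in either response. It stood at 33.2, 38.9 and 44.1 CPM in WT control mice and at 15.9, 32.4 and 17 CPM in WT IMQ mice, lower in every IMQ mouse. The log2 change was -0.84 (SE 0.31, unadjusted p = 0.0189, adjusted p = 0.0615, edgeR). It passed under DESeq2 (adjusted p = 0.033) and without WT IMQ mouse 2 (log2 change -1.24, adjusted p = 0.008, edgeR). In mice labelled Lcn2-/- the values were 46.2, 24.1 and 45.7 CPM without IMQ and 29.8, 37.4 and 24.9 CPM with it, which overlapped (log2 change -0.34, SE 0.30, adjusted p = 0.443, edgeR). Wfdc21 and Defb6 shared this profile of high control levels with no rise, and over the 12 mice their log2 CPM had a Pearson r of 0.68.

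The table holds 18 WAP four-disulfide core genes by name (Slpi not among them), of which 7 were tested. Wfdc5 rose in both responses, from 12 ± 1.18 to 44.2 ± 8.02 CPM (SD, n = 3) in WT mice, a log2 change of 1.88 (adjusted p = 6.43e-05, edgeR), and by 1.74 in mice labelled Lcn2-/- (adjusted p = 0.0002, edgeR). Wfdc17 rose by 1.49 (adjusted p = 0.0165, edgeR) and 2.11 (adjusted p = 0.00386, edgeR). Wfdc1 fell by 1.41 on the log2 scale in WT mice (adjusted p = 0.00217, edgeR) and had a log2 change of 0.09 in mice labelled Lcn2-/- (adjusted p = 0.82, edgeR). Wfdc3 and Wfdc18 fell in mice labelled Lcn2-/- by 2.64 and 2.16 on the log2 scale (adjusted p = 0.0397 and 0.0272, edgeR), and in WT mice had log2 changes of -1.96 and -0.97 without a call. Wfdc12 had the largest rise among these 7.

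**Figure D3:**
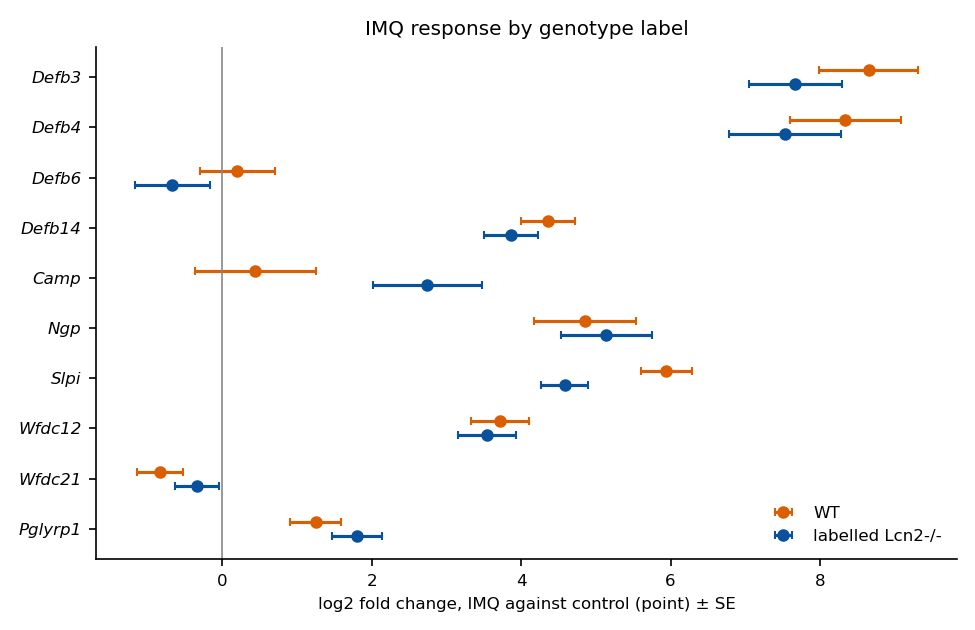
Fitted log2 change of IMQ against control (x axis) for each of the 10 genes (y axis), in WT mice and in mice labelled Lcn2-/-, with bars for the SE derived from the edgeR test over 12 mice. Defb3 and Defb4 lie above 7 in both genotypes, and Defb6 and Wfdc21 lie between -1 and 0.5.

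The granule genes were at lower levels. Ngp had 1, 4 and 3 counts in the WT control mice and 67, 34 and 103 in the WT IMQ mice, or 4.06, 2.29 and 4.99 CPM after IMQ. In mice labelled Lcn2-/- it had 5, 6 and 14 counts without IMQ and 179, 106 and 359 with it, or 10.9, 6.2 and 21.5 CPM. The control and IMQ groups did not overlap in either genotype. Its log2 change was 4.85 (SE 0.68, adjusted p = 0.000406, edgeR) in WT mice and 5.14 (SE 0.61, adjusted p = 0.000214, edgeR) in mice labelled Lcn2-/-, where it was 4.54 without IMQ mouse 3 and 5.76 without control mouse 3.

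Pglyrp1 rose by less. It was at 2.31, 4 and 1.81 CPM in WT control mice and at 5.82, 5.98 and 7.6 CPM in WT IMQ mice, a log2 change of 1.25 (SE 0.34, adjusted p = 0.017, edgeR). In mice labelled Lcn2-/- it went from 3.71, 1.65 and 2.99 CPM to 9.71, 8.24 and 11.3 CPM, a log2 change of 1.80 (SE 0.34, adjusted p = 0.00336, edgeR). The WT call was lost without WT control mouse 1 (adjusted p = 0.0661), without WT control mouse 3 (0.0591) or without WT IMQ mouse 3 (0.0638, all edgeR). Of the other peptidoglycan recognition proteins, Pglyrp3 rose in both genotypes (log2 change 3.19, adjusted p = 5.54e-05, and 1.48, adjusted p = 0.00678, edgeR) and Pglyrp4 in WT mice (0.90, adjusted p = 0.0225, edgeR), where Pglyrp2 had a log2 change of -1.16 (adjusted p = 0.0634, edgeR).

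Camp, the cathelicidin gene, was under 1 CPM in 9 of the 12 mice. It had 8, 11 and 3 counts in WT control mice, 11, 0 and 14 in WT IMQ mice and 20, 13 and 6 in controls labelled Lcn2-/-. The IMQ mice labelled Lcn2-/- had 86, 34 and 62 counts, or 5.25, 1.99 and 3.72 CPM. The count of 0 in WT IMQ mouse 2 allows a level of up to 3 counts, or 0.182 CPM on its total before TMM normalization. As a description without a test, the log2 change of Camp with IMQ was 0.44 (SE 0.81) in WT mice and 2.74 (SE 0.73) in mice labelled Lcn2-/-.

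Without IMQ, no antimicrobial gene passed the test between the genotype labels. Of the 10 members, 0 were called between the controls labelled Lcn2-/- and the WT controls by edgeR, where 0.0108% of all genes were called in either direction. At an unadjusted p under 0.05 there was 1 member, Slpi, against 6.60% of all genes, and DESeq2 called the same gene (adjusted p = 0.0375). Slpi was 2.34-fold higher in the controls labelled Lcn2-/- (log2 change 1.23, SE 0.32, unadjusted p = 0.00283, adjusted p = 0.459, edgeR). It was also the 1 member higher with no overlap between the groups, an order that 4.19% of all genes had. The other members' log2 changes ran from -0.32 (Wfdc12) to 1.47 (Ngp, SE 0.79, adjusted p = 0.843, edgeR).

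After IMQ, the comparison of the mice labelled Lcn2-/- with the WT mice chose Camp, and its values are given as a description with no test. Camp was 7.55-fold higher by pooled counts (182 against 25 counts), a fitted log2 difference of 2.97 (SE 0.76). Leaving out each mouse in turn moved that difference between 2.43 (without WT IMQ mouse 2) and 3.39 (without WT IMQ mouse 3). Ngp was higher by 1.76 (SE 0.49) and Pglyrp1 by 0.59 (SE 0.33), and for these 3 granule genes each IMQ mouse labelled Lcn2-/- lay above each WT IMQ mouse. Over all genes, 16.0% were higher with no overlap and 17.3% lower, and at an adjusted p under 0.05 2.19% were higher and 2.60% lower.

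The other 7 members had values on both sides of 0. Defb4 had a log2 difference of -0.94 (SE 0.44), Defb6 of -0.61 (SE 0.50), Defb14 of -0.55 (SE 0.31), Wfdc12 of -0.50 (SE 0.33), Defb3 of -0.38 (SE 0.40) and Slpi of -0.13 (SE 0.26), while Wfdc21 was at 0.50 (SE 0.31). For these 7 genes the IMQ groups overlapped. The difference for Defb6 turned to 0.56 without WT IMQ mouse 2, and that for Slpi to 0.08 without mouse 2 of the IMQ mice labelled Lcn2-/-. The IMQ response in mice labelled Lcn2-/- minus that in WT mice was 2.31 (SE 1.09) for Camp, -1.36 (SE 0.42) for Slpi and 0.29 (SE 1.15) for Ngp on the log2 scale, also as a description; for Ngp it was -0.30 without mouse 3 of the IMQ mice labelled Lcn2-/-.

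**Figure D4:**
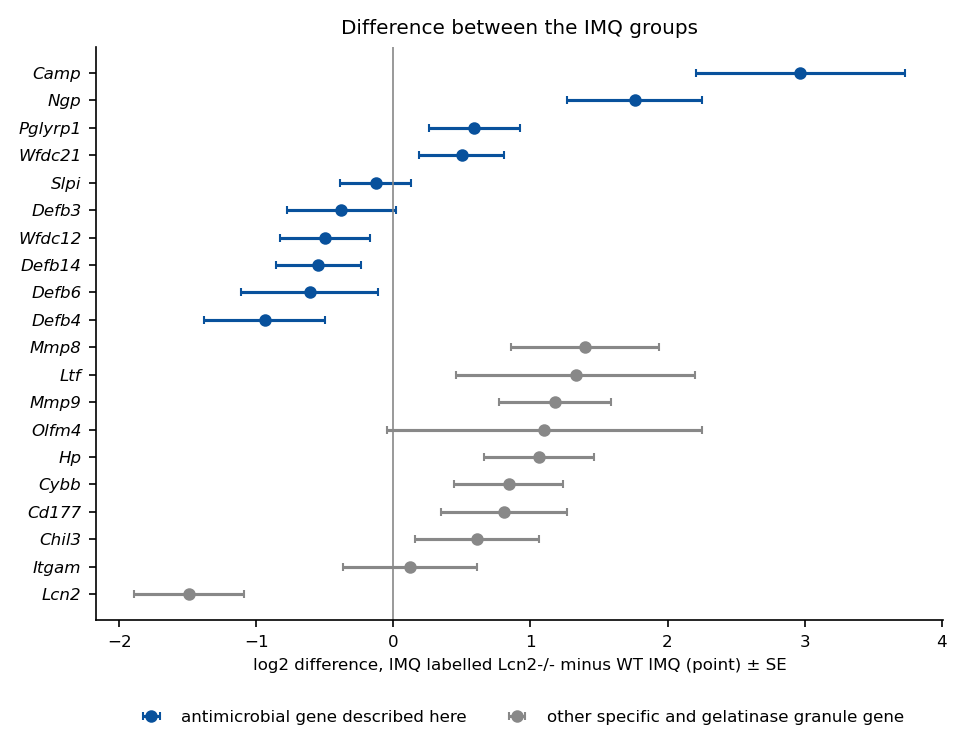
Fitted log2 difference between the IMQ mice labelled Lcn2-/- and the WT IMQ mice (x axis) for the 10 genes and for 10 other genes of specific and gelatinase granules (y axis), with bars for the SE. Camp (2.97) and Ngp (1.76) are the rightmost of the 10, and 9 of the 10 other granule genes are above 0 with Lcn2 at -1.49.

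Genes of the same granules that were no members gave a testable comparison. Of 10 tested genes of specific and gelatinase granules, 9 were above 0 in the IMQ mice labelled Lcn2-/- against WT IMQ mice, with a median log2 difference of 0.95 beside -0.02 over all genes, but 0 were called higher or lower (edgeR). Mmp8, a neutrophil collagenase, had a log2 difference of 1.40 (SE 0.54, adjusted p = 0.128, edgeR), Ltf, which encodes lactoferrin, 1.33 (SE 0.87, adjusted p = 0.344, edgeR) and Lcn2 -1.49 (SE 0.40, adjusted p = 0.0525, edgeR). In the IMQ responses 5 of these 10 rose in WT mice and 9 in mice labelled Lcn2-/-, beside 14.2% and 14.1% of all genes. Among them were Mmp8 (5.11, adjusted p = 0.000333, and 5.15, adjusted p = 0.000371, edgeR) and Chil3 (5.67, adjusted p = 5.05e-05, and 5.86, adjusted p = 7.27e-05, edgeR). Genes of azurophil granules, which are made in the marrow before the specific granules, were scarce: of 5, 2 were tested and 0 rose, and Prtn3 fell by 2.14 on the log2 scale in WT mice (adjusted p = 0.0424, edgeR). A log2 difference above 0 between the IMQ groups was not particular to granule genes. It was also found for 10 of 10 fibroblast, 8 of 8 adipocyte and 8 of 8 mast cell genes, and for 0 of 15 basal and suprabasal keratinocyte genes.

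Neutrophil markers rose with IMQ in both genotypes, as Ngp did, whereas Camp in WT mice stayed under 1 CPM. Summed over 11 neutrophil genes other than the members, S100a8 and S100a9, the level was 87.8, 140 and 52.5 CPM in WT controls and 115, 60.8 and 110 CPM in controls labelled Lcn2-/-. It was 223, 322 and 278 CPM in WT IMQ mice and 347, 270 and 683 CPM in IMQ mice labelled Lcn2-/-, and the IMQ groups overlapped. Set against 1000 CPM of that sum, Ngp was at 18.2, 7.09 and 18 CPM in WT IMQ mice and at 31.5, 23 and 31.5 CPM in IMQ mice labelled Lcn2-/-. Camp on the same scale was at 2.99, 0 and 2.44 CPM in WT IMQ mice and at 15.1, 7.37 and 5.44 CPM in IMQ mice labelled Lcn2-/-, whereas controls ranged from 2.43 to 11.4 CPM. Of 13 neutrophil genes that are no members, 11 rose in WT mice and 12 in mice labelled Lcn2-/-, beside 14.2% and 14.1% of all genes. Between the IMQ groups 0 of these 13 were called (edgeR), where 2.19% of all genes were higher and 2.60% lower. Erythroid and marrow precursor markers summed to 156, 494 and 185 CPM in WT IMQ mice and to 448, 900 and 276 CPM in IMQ mice labelled Lcn2-/-. Fibroblast markers summed to between 11432 and 12120 CPM in WT IMQ mice and to between 22098 and 23210 CPM in IMQ mice labelled Lcn2-/-, and 15 basal and suprabasal keratinocyte markers to between 37625 and 49500 and between 22160 and 33923 CPM. Mast cell markers summed to between 357 and 447 CPM in WT IMQ mice and between 590 and 692 CPM in IMQ mice labelled Lcn2-/-. Endothelial markers summed to between 464 and 794 and between 957 and 1003 CPM, with 8 of 8 endothelial genes higher with no overlap, beside 16.0% of all genes. Macrophage markers summed to between 3646 and 5982 and between 5681 and 7993 CPM, which overlapped, with 11 of 11 genes above 0 in the log2 difference, and T cell markers to between 181 and 257 and between 279 and 317 CPM. The part of these cell types in the values of the members was not tested.

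**Figure D5:**
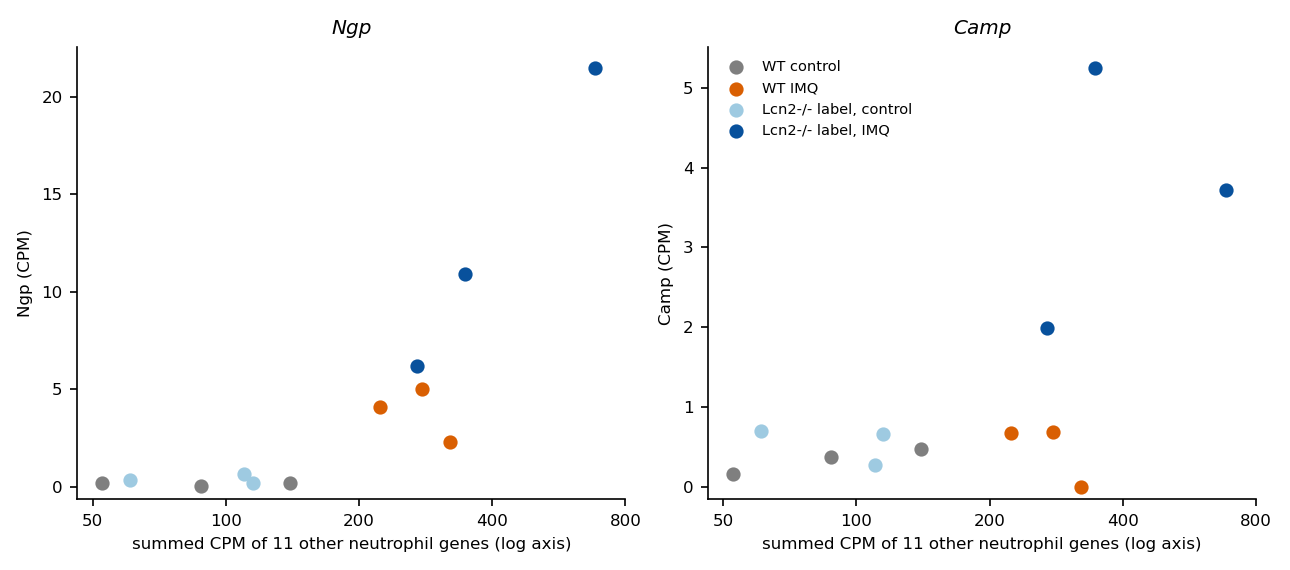
Ngp (left) and Camp (right) in CPM (y axes) against the summed CPM of 11 other neutrophil genes without S100a8 and S100a9 (x axis, log scale), with 1 point per mouse coloured by group. WT IMQ mice have sums of 223 to 322 CPM with at most 4.99 CPM of Ngp and 0.678 CPM of Camp, and the IMQ mice labelled Lcn2-/- lie above them at 270 to 683 CPM.

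Over the 12 mice, Ngp was most like neutrophil genes in its log2 CPM, with a Pearson r of 0.98 to Cxcr1, 0.98 to Mmp8 and 0.96 to Cd177. Defb3 was most like BC117090, Gm5478 and Lce3d (each 0.99), Slpi was most like Maff, Sprr2i and Sprr2g (each 0.99), and Wfdc12 was most like 2010005H15Rik, Stfa1 and Stfa3 (each 0.98). Among the members, Defb3, Defb4, Defb14, Slpi and Wfdc12 had an r between 0.93 and 0.99 for every pair. The same genes had an r to Ngp of 0.94 (Slpi), 0.92 (Defb3), 0.90 (Defb4 and Defb14) and 0.85 (Wfdc12). Camp had an r of 0.61 to Ngp and at most 0.58 to the other members, and its closest genes were Gm48350 (0.91), Gm9855 (0.85) and Tmem150b (0.84). Because Camp was chosen on its level in the IMQ mice labelled Lcn2-/-, that choice enters its correlations. These values describe 12 libraries that share the contrast of control and IMQ skin.

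The signals known to induce antimicrobial genes in keratinocytes also rose with IMQ. Of 11 tested cytokines (chosen by name, no members), 9 were higher in WT IMQ than in WT control mice and 6 in the mice labelled Lcn2-/- (edgeR). Over all genes, 14.2% were higher and 14.3% lower in WT mice, and 14.1% higher and 11.2% lower in mice labelled Lcn2-/-. Il19, a cytokine of the IL-20 group, went from 0.112 ± 0.0586 to 54.2 ± 15.3 CPM (SD, n = 3) in WT mice and from 0.103 ± 0.0926 to 12.8 ± 3.38 CPM in mice labelled Lcn2-/- (adjusted p = 1.21e-06 and 1.12e-05, edgeR). Il24, of the same group, had no counts in WT controls and 14.3 ± 2.65 CPM in WT IMQ mice, and went from 0.0328 ± 0.0569 to 2.77 ± 1.24 CPM in mice labelled Lcn2-/- (adjusted p = 1.99e-05 and 0.000408, edgeR). Of 25 receptors and transcription factors upstream of these genes, 12 rose and 1 fell in WT mice, and 13 rose and 2 fell in mice labelled Lcn2-/-. Il17f rose in WT mice (4.53, adjusted p = 2.86e-05, edgeR) and had a log2 change of 0.99 in mice labelled Lcn2-/- (adjusted p = 0.0628, edgeR). Taking all lists, of 77 tested genes of these pathways that are no members, 7 were lower and 0 higher in IMQ mice labelled Lcn2-/- than in WT IMQ mice, beside 2.19% of all genes higher and 2.60% lower, among them Il24 (-2.36, adjusted p = 0.0276), Il19 (-2.08, adjusted p = 0.0219), Il1a (-1.17, adjusted p = 0.0237) and the kallikrein inhibitor gene Spink5 (-0.73, adjusted p = 0.0375, all edgeR). That count depends on the fit and on single mice: DESeq2 called 7 higher and 16 lower, edgeR on the 6 IMQ mice alone called 7 higher and 15 lower, and the count was 0 without any of 5 of the 6 IMQ mice and 13 without WT IMQ mouse 2.

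Genes that process cathelicidin and other epidermal peptides were mostly higher after IMQ. Of 11 tested proteases and inhibitors, 9 rose and 1 fell in WT mice, and 7 rose and 0 fell in mice labelled Lcn2-/-. The shares over all genes were 14.2% higher and 14.3% lower in WT mice, and 14.1% and 11.2% in mice labelled Lcn2-/-. The kallikreins Klk14, Klk13 and Klk6 had log2 changes of 7.07, 5.48 and 3.36 in WT mice (adjusted p = 5.52e-05, 5.77e-06 and 2.09e-06, edgeR) and of 5.73, 4.67 and 2.35 in mice labelled Lcn2-/- (adjusted p = 0.000159, 2.86e-05 and 3.41e-05, edgeR). Among other antimicrobial effectors, S100a8 and S100a9, the subunits of calprotectin, rose by 9.25 and 9.40 on the log2 scale in WT mice (adjusted p = 1.66e-05 and 3.24e-06, edgeR), while Hamp2, a hepcidin gene, went from 47.5 ± 12.6 to 0.0646 ± 0.112 CPM (SD, n = 3; adjusted p = 1.66e-05, edgeR). Of 20 tested genes of that list, 7 rose and 4 fell in WT mice, and 10 rose and 4 fell in mice labelled Lcn2-/-. The falls, 4 of 20 in each, stood beside 14.3% and 11.2% of all genes lower.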

How the data were processed

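The authors deposited raw read counts per Ensembl gene for 12 libraries, without normalization. The submitters' processing notes name HISAT and the build mm8, with no role given, and the study's methods name DESeq2. The treatment of reads that match several genes and the use of strand are not given in the sources used here. Symbols and positions came from GENCODE M21 (GRCm38), which held 52073 of 56923 identifiers (91.5%), and upstream sequences from RefSeq (GRCm38.p6).

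Counts were normalized by TMM in edgeR 4.0.16 (limma 3.58.1, R 4.3.3) and fitted by a robust quasi-likelihood model of 4 group means over 12 mice, with filterByExpr (minimum count 10, minimum total 15) leaving 18529 genes. The common biological coefficient of variation was 0.253. Each SE is the absolute log2 change divided by the square root of the F statistic of the quasi-likelihood test. CPM was computed on TMM-scaled totals, and CPM per kb divides it by the merged exon length. A gene was called at a Benjamini-Hochberg adjusted p under 0.05. Intervals and the floor of 3 counts cover only counting error, because PCR copies cannot be told from separate molecules here. No libraries of a group agreed within sampling noise. The alternatives were RLE size factors, DESeq2 1.42.0, no filter, at least 10 counts in every library, the 6 compared mice only, the replicate number as a block, and each mouse left out. The scripts were tested on simulated counts.

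The members and the gene lists were chosen with earlier results of these data known. Named genes were the 10 members, Lcn2, all beta-defensin and WAP genes with at least 1 CPM, up to 3 genes with the largest called change per list and contrast at a mean of at least 1 CPM, and the 3 genes most like each member. Pglyrp2, Ltf, Mir7678, A730032A03Rik, Defb5, Defb8 and Defb46 were added after their values were seen. Mice carry the numbers 1, 2 and 3 in each group but are different animals, and deviations from the group means of same-numbered mice correlated between -0.555 and 0.199. Figures were drawn with matplotlib in Python.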

Additional observations from a re-analysis of the deposited data

Results flagged for a closer look

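For 4 of the 32 genes named from the pathway lists and gene families, all 4 cytokines or upstream regulators, the IMQ response differed between the genotype labels by edgeR's test of the difference itself, among 398 genes called over the whole table. The log2 response in mice labelled Lcn2-/- minus that in WT mice was -3.54 for Il17f (SE 0.57, adjusted p = 0.0223; responses 0.99 and 4.53), -1.63 for Il1a (SE 0.31, adjusted p = 0.031; responses 1.70 and 3.33), -1.88 for Nfkbiz (SE 0.41, adjusted p = 0.0432; responses 0.49 and 2.36) and -1.81 for Zc3h12a (SE 0.24, adjusted p = 0.017; responses 0.85 and 2.66). The control mice of the genotype labels stood at 0.154 ± 0.0421 CPM (WT) and 1.16 ± 0.364 CPM (labelled Lcn2-/-) for Il17f, and their IMQ mice at 3.76 ± 1.52 and 2.29 ± 0.168 CPM (SD, n = 3). The Il17f control values rest on few reads: 4, 4 and 2 counts (WT), near the floor of 3 counts, and 25, 29 and 25 counts (labelled Lcn2-/-). Control means, WT first, were 34.7 and 71.4 CPM for Nfkbiz, 23 and 50.6 CPM for Zc3h12a and 5.57 and 7.66 CPM for Il1a. Genes were named for a large called change in a single contrast, which enters the difference tested, so these calls are not independent of how the genes were chosen. The same difference was not tested for the 10 antimicrobial genes.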

How the results depend on the processing

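The count of 7 members called in each IMQ response was also 7 with RLE size factors, without a filter and with the replicate block. DESeq2 called 8 in WT mice and 7 in mice labelled Lcn2-/-, and edgeR on the 6 compared mice only called 7 and 8. With each mouse left out the count lay between 6 and 9 in WT mice and between 7 and 8 in mice labelled Lcn2-/-. These counts take either direction, and the calls beyond 7 were falls. Without WT IMQ mouse 2, Wfdc21 (-1.24) and Defb6 (-0.96) were called lower in WT mice. By DESeq2, Wfdc21 was also lower in WT mice. In mice labelled Lcn2-/-, Defb6 was called lower on the 6 compared mice and without WT IMQ mouse 2. A minimum of 10 counts in every library kept 5 of the 9 members and called 3 in each response, because Defb3, Defb4, Ngp and Wfdc12 were near 0 in controls. Between the control groups, where edgeR called 0 members (1 at an unadjusted p under 0.05), DESeq2 called 1 and the rule of a fold above 2 with an unadjusted p under 0.05 gave 1, Slpi in both, and each fit without a mouse called 0. Of 77 other listed genes, where 7 were called between the IMQ groups, the replicate block called 3, DESeq2 23 (7 higher, 16 lower) and edgeR on the 6 IMQ mice 22 (7 higher, 15 lower), and with each mouse left out the count lay between 0 and 13; these alternatives were chosen after seeing the data, and the cause was not tested. Of 849 member values under alternatives, 832 kept their side of the threshold or moved by less than the spread between mice, but 31 had another sign than reported or came to 0.00, 21 of them between the control groups. Of the 31, Defb6 in WT mice became a call, at -0.96 without WT IMQ mouse 2, within a range of -0.96 to 0.58 with each mouse left out. The replicate numbers do not pair animals, 4 of 12 mice correlated best with their own number, and the block changed no call of a member. RLE factors moved the median of all genes by at most 0.017 on the log2 scale. Depth limits Defb3, Defb4, Ngp, Wfdc12 and Camp, which had at most 20 counts in each control mouse.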
